A study of Mus musculus with 12 samples.

Results

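The genes of the cytosolic ribosomal proteins were followed through 12 RNA libraries from mouse hearts. The 86 genes were all rows of the count matrix, of 27504 genes in all, with a protein-coding mouse symbol that starts with Rpl or Rps and a digit, together with Rplp0, Rplp1, Rplp2 and Rpsa. Pseudogenes and the S6 kinases (Rps6k) were left out. By role they were 43 proteins of the large subunit, 3 proteins of its stalk, 31 proteins of the small subunit, 8 paralogs and Rps19bp1, which is no ribosomal protein and was taken in by its symbol. All mice were wild-type C57BL/6 at postnatal day 45. One arm had hypertrophy of the heart induced by angiotensin II (AngII), the vasoconstrictor peptide of the renin system, and the control arm was sham-operated. Each arm received vehicle, 5 or 50 mg/kg/day of gastrodin, a plant phenolic glucoside, given into the stomach for 7 days, with 2 libraries per group. Libraries carry the numbers 1 and 2 (AngII vehicle), 3 and 4 (AngII 5 mg), 5 and 6 (AngII 50 mg), 7 and 8 (sham vehicle), 9 and 10 (sham 5 mg) and 11 and 12 (sham 50 mg). Nothing in the labels ties libraries to separate animals, and p-values therefore measure only the spread between these libraries. In bulk tissue, fewer cells of a type and less RNA per cell cannot be told apart.

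The cytosolic ribosome joins a small subunit, which reads the messenger RNA, to a large subunit, which forms the peptide bond. Most of its proteins are made in near-equal numbers in every cell, and growth of heart muscle cells goes along with the making of new ribosomes. Their messenger RNAs usually begin with a C followed by a run of C and T, the 5′ terminal oligopyrimidine or TOP motif, through which mTOR signalling and the RNA-binding protein Larp1 control their translation. Rpl3l is the striated-muscle form of Rpl3, the large-subunit protein near the peptidyl transferase centre, and takes its place in part of the ribosomes of heart and skeletal muscle.

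RefSeq promoter entries (GRCm38.p6) matched 66 of the 86 symbols. The windows below show the 15 bases before and the 15 bases from the annotated start on. They are printed to show runs of C and T near that start, in members with such a run and in members without one. A run may lie anywhere in the window, so it need not be the first bases of the message. Capitals mark a C followed by C or T only, where the run has at least 7 bases.
Rpl15, large subunit, chr14:18270972-18271001, minus strand: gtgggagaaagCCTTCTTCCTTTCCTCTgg
Rpl27a, large subunit, chr7:109519180-109519209, plus strand: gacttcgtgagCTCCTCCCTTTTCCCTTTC
Rpl35, large subunit, chr2:39005117-39005146, minus strand: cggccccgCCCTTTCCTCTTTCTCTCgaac
Rplp2, stalk, chr7:141447636-141447665, plus strand: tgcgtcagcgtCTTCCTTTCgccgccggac
Rps6, small subunit, chr4:86857353-86857382, minus strand: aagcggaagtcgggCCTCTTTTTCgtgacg
Rpl38, large subunit, chr11:114668565-114668594, plus strand: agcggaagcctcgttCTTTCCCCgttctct
Rps13, small subunit, chr7:116334176-116334205, minus strand: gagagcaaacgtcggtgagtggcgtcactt
Rplp0, stalk, chr5:115559452-115559481, plus strand: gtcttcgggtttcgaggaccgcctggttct
Rpl3l, muscle paralog, chr17:24727811-24727840, plus strand: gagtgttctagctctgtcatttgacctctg

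A run of at least 7 bases on the coding strand stood in the window of 32 of the 66 members (48.5%) and of 16.4% of all 27025 symbols with an entry. The minimum of 7 was chosen after the windows were seen, and 3 other minima were looked at. With at least 5 bases the shares were 65.2% of members and 40.3% of all symbols, with at least 8 they were 39.4% and 10.8%, and with at least 10 they were 24.2% and 4.84%. A window without the run says only that these letters are not around the annotated start.

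Library depth was even, with 63.5 to 78.6 M counts, but most counts lay on mitochondrial genes. Outside the 37 mitochondrial genes, 7 nuclear genes that resemble them and 36 ribosomal RNA loci, 7.49 to 20.3% of counts remained in AngII libraries and 6.34 to 10.4% in sham libraries. Library 12 stood apart with 11.1% of its counts on ribosomal RNA loci, against at most 0.983% in the others. Summed cardiomyocyte markers (7 of 7 genes measured at a mean of at least 1 CPM, counts scaled to the TMM-adjusted library size) ranged from 3849.5 to 6983 CPM in AngII and from 2458 to 4723 CPM in sham libraries. Fibroblast markers (5 of 5) ranged from 39.4 to 72.4 CPM in AngII and from 53.1 to 184 CPM in sham, endothelial markers (5 of 5) from 58.7 to 135 CPM and from 44.2 to 63.3 CPM, smooth muscle and pericyte markers (5 of 5) from 97.4 to 309 CPM and from 72.0 to 156 CPM, macrophage markers (5 of 5) from 20.8 to 74.5 CPM and from 28.6 to 116 CPM, and red cell markers (5 of 5) from 1028 to 3347 CPM and from 289.6 to 1741.5 CPM. For the endothelial markers library 4 was the one AngII library within the sham range, and the other 5 lay above that range. None of these markers was at 0 in every library, and their part in the results below was not tested.

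The ribosomal protein genes together took a smaller share of the remaining counts in AngII hearts. The share was 3.22 and 4.19% in AngII vehicle, 3.49 and 5.99% in AngII 5 mg, and 3.59 and 3.40% in AngII 50 mg. It was 5.63 and 6.15% in sham vehicle, 5.91 and 6.07% in sham 5 mg, and 7.24 and 6.63% in sham 50 mg. Library 4 of AngII 5 mg lay among the sham libraries, and the other 5 AngII libraries lay below all 6 of them. The AngII libraries with the most remaining counts were among those with the lowest shares, and library 4 had the fewest remaining counts of its arm.

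**Figure D1:**
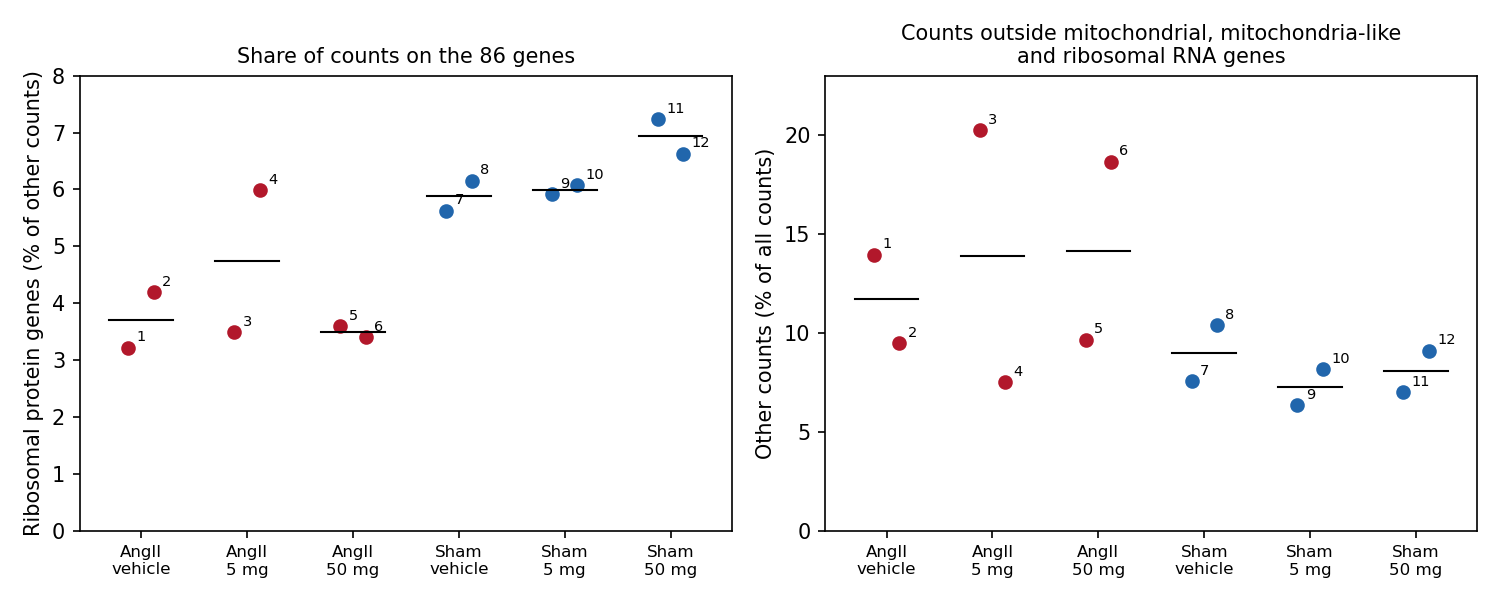
Left, counts on the 86 genes as a percentage of counts outside mitochondrial, mitochondria-like and ribosomal RNA genes, by group, with 1 point per library (numbered) and a line at the group mean. Right, those remaining counts as a percentage of all counts. Library 4, at 5.99% on the left, is the AngII library that lies among the sham libraries, and it is the lowest AngII library on the right at 7.49%.

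Averaged over the 3 doses, 54 of the 84 members that passed the filter on low counts were lower in AngII than in sham hearts, 1 was higher and 29 did not pass (edgeR quasi-likelihood test, Benjamini-Hochberg adjusted p under 0.05 over all genes). Among all 16723 genes tested, 7.53% fell and 13.4% rose. The members' median log2 fold change was -0.63, beside 0.10 over all genes, and 79 of 84 were below 0. The fall held by role: 29 of 43 large-subunit genes, all 3 stalk genes, 20 of 31 small-subunit genes and 2 of 6 tested paralogs fell, and the only rise was Rpl3l. Rpl10l and Rpl39l did not pass the filter.

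That count depends on the scale. CPM were scaled by TMM factors, which ran from 0.770 to 1.99 in AngII and from 0.638 to 1.03 in sham libraries (means 1.30 and 0.83). A larger factor lowers the CPM of every gene in its library. The part of these factors in the members' fall was not tested. On the deposited TPM values (a level per transcript length), the summed level of the 84 members listed was 6509 ± 2049 TPM in AngII and 6416 ± 1383 TPM in sham (SD, n = 6 each), and the arms overlapped. A limma-trend test on log2(TPM + 1) called 1 member lower and 1 higher, with a median of -0.05 for the members and 0.22 for all genes, so the members' median lay below that of all genes on both scales. With the share of remaining counts as a covariate 4 members fell, and with a trend on gene length removed 31 fell. Leaving out single libraries gave from 15 members that fell (without library 1) to 65 (without library 4). Without libraries 6, 8, 9 and 11 in turn, 24, 26, 32 and 32 members fell. The share of all genes called in these alternative fits is not given here, so these counts cannot be set against those of all genes.

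**Figure D2:**
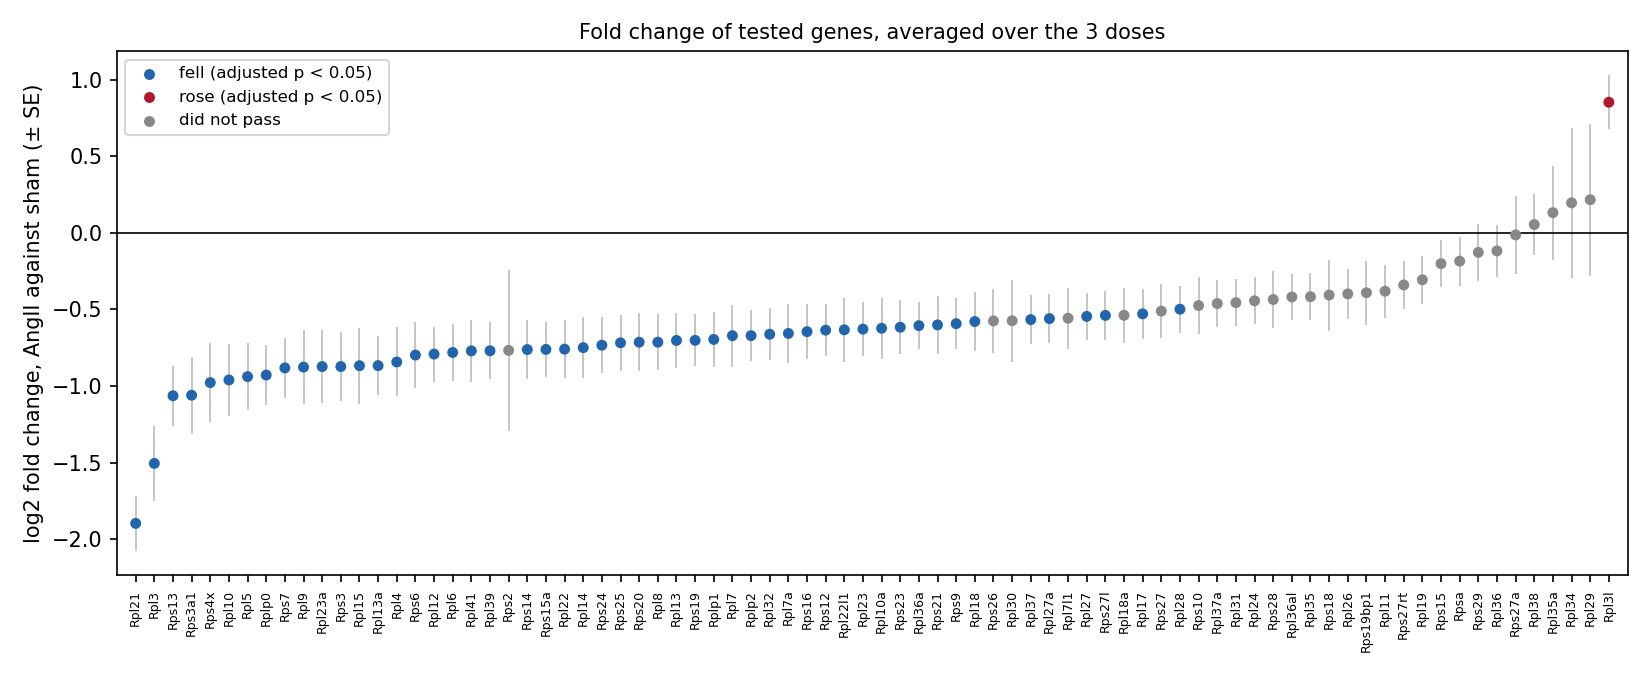
Log2 fold change of AngII against sham, averaged over the 3 doses, for 80 of the 84 tested genes in order of size, with standard errors. Blue genes fell, the red gene (Rpl3l, 0.85) rose and grey genes did not pass; the values run from -1.90 (Rpl21) to 0.85.

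Libraries of the arms did not overlap in CPM for 15 of the 84 members, all lower in AngII, where 2.92% of all genes tested were lower and 4.44% higher without overlap. The 15 included Rpl6, Rpl7a, Rpl13a, Rpl28, Rpl36a, Rpl37a, Rplp0, Rplp1, Rps7, Rps9, Rps13, Rps20 and Rps24. Without library 4, 63 of the 84 did not overlap, where 7.39% of all genes were so. Library 4 is the AngII library whose share of these same genes lay among the sham libraries. A higher count without it was therefore largely fixed in advance.

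The stalk proteins form the arm of the large subunit that recruits and activates translation factors. Rplp0 (chr5:115559467-115563727, GRCm38) had 46.0, 63.2, 50.2, 97.2, 61.1 and 46.6 CPM in AngII libraries 1 to 6 and 128, 118, 116, 105, 109 and 111 CPM in sham libraries 7 to 12. All AngII libraries were below all sham libraries, with library 4 closest to them. Rplp0 fell by 0.93 on the log2 scale (SE 0.20, edgeR adjusted p = 0.0075). Rplp1 had 117 ± 24.1 CPM in AngII and 189 ± 21.4 CPM in sham (SD, n = 6) and fell by 0.70. Rplp2 had 35.2 ± 6.22 and 56.0 ± 6.29 CPM and fell by 0.67.

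Among small-subunit genes, Rps13, a protein of the subunit's central part, fell furthest. Its values were 17.8, 25.4, 19.4, 38.1, 22.3 and 19.5 CPM in AngII and 53.7, 51.2, 46.1, 42.4, 57.3 and 44.8 CPM in sham libraries. The arms did not overlap, and the log2 fold change was -1.06 (SE 0.20, edgeR adjusted p = 0.0043). Rps7 fell by 0.88 (37.1 ± 11.4 against 68.1 ± 7.05 CPM) and Rps15a by 0.76 (25.9 ± 7.99 against 43.6 ± 5.66 CPM). Rps6, the substrate of the S6 kinases, fell by 0.80 with 68.9 ± 24.99 CPM in AngII and 119 ± 6.82 CPM in sham. Rps19, the gene most often mutated in Diamond-Blackfan anaemia, fell by 0.70 with 52.9 ± 13.7 and 85.1 ± 6.51 CPM. Rps4x, the X-linked small-subunit gene, fell by 0.98 with 62.0 ± 28.7 and 121 ± 10.1 CPM. For Rps4x, Rps6 and Rps19 library 4 reached the sham range in AngII, and each lost its call in 2 of the 12 fits that left out a library.

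Among large-subunit genes, Rpl13a fell by 0.87, from 229 ± 43.7 CPM in sham to 125 ± 34.3 CPM in AngII, and Rpl6 fell by 0.78, from 99.8 ± 5.84 to 58.5 ± 16.4 CPM. Rpl12, a protein of the stalk base, fell by 0.79, from 77.6 ± 4.39 to 45.5 ± 13.8 CPM. Rpl5, which binds 5S ribosomal RNA and takes part in the Mdm2 response to failed ribosome assembly, fell by 0.94, from 94.7 ± 8.26 to 49.9 ± 19.2 CPM. Rpl12, Rpl13a, Rpl5 and Rpl6 kept their call in all 12 fits that left out a library, and so did Rplp0, Rps13 and Rps7.

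Members with values near 0 were Rps27a, which encodes a ubiquitin fusion, at -0.01 (SE 0.25), Rpl38 at 0.05 (SE 0.20) and Rpl36 at -0.12 (SE 0.17). Reads of Rps27a shift between the gene and its pseudogene copies, and with the copies added it stood at -0.45 (SE 0.18, edgeR adjusted p = 0.087), so that its value near 0 rests on how these reads were divided. On log2(TPM + 1), Rps27a stood at 0.64 and Rpl36 at 0.49. Rpl38, which is needed for translation of some Hox messages, had 24.98, 16.4, 28.7, 23.4, 17.3 and 32.3 CPM in AngII and 22.8, 21.5, 19.1, 20.5, 31.7 and 22.8 CPM in sham libraries. The arms overlapped throughout. Rpl38 has a run of C and T in its window printed above, and Rps13 and Rplp0, which fell, do not. Of members with a promoter entry, the run of at least 7 bases stood in 51.2% of the 41 that fell and in 43.5% of the 23 tested that did not. With at least 8 bases the shares were 39.0% and 43.5%, so their order turned with the minimum.

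The length of the principal transcript moved with the size of the change. Over the 84 members, Spearman's rho between length (271 to 3706 bases) and log2 fold change was -0.42, and between GC content and log2 fold change 0.29, as a description across genes that share the same libraries. Members under 500 bases had a median of -0.48 (8 of 19 fell), those from 500 to under 1000 bases -0.63 (31 of 46) and those of at least 1000 bases -0.73 (15 of 19), in classes set after the values were seen.

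Relative to the members' own sum, 4 members rose and 3 fell, where 35.6% of all genes rose and 0.574% fell. Rpl3l (1.53), Rpl38 (0.74), Rpl36 (0.56) and Rpsa (0.46, the laminin receptor protein of the small subunit) rose, and Rpl21 (-1.25), Rpl3 (-0.92) and Rps13 (-0.45) fell on the log2 scale. These are values of the genes alone, and reads of Rpl21, Rpl3 and Rpsa also lie on pseudogene copies. Rpl36 (5 copies), Rps13 (5) and Rpl38 (3) have copies in the matrix as well, and Rpl3l has none. On the scale over all genes, adding the copies took Rpl21 from -1.90 to -0.62, Rpl3 from -1.51 to -1.17 and Rpsa from -0.19 to -0.38, and no fit relative to the members' sum was run with copies added. The count ranged from 3 to 19 when single libraries were left out, with 19 without library 4. The share of all genes in those fits is not given here.

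Rpl3l (chr17:24727820-24736143) and Rpl3 (chr15:80077791-80091868) moved in opposite directions. Rpl3l had 73.3, 51.6, 59.3, 47.1, 83.1 and 85.3 CPM in AngII and 60.8, 41.1, 39.7, 39.8, 26.4 and 20.7 CPM in sham libraries. AngII libraries 1, 5 and 6 were above all sham libraries, and AngII libraries 2, 3 and 4 lay above all sham libraries other than library 7. Rpl3l rose by 0.85 on the log2 scale (SE 0.18, edgeR adjusted p = 0.0071), kept its call in all 12 fits that left out a library, and shares no 31-base words with other genes. It was not called with the share of remaining counts as a covariate (log2 0.76, adjusted p = 0.051).

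Rpl3 had 12.2, 17.3, 11.1, 32.6, 14.1 and 14.0 CPM in AngII and 28.0, 36.5, 27.2, 36.8, 107 and 93.5 CPM in sham libraries. The sham 50 mg libraries 11 and 12 were far above the rest, and library 4 lay within the range of the other sham libraries. Rpl3 fell by 1.51 (SE 0.25, edgeR adjusted p = 0.0024), and by 1.17 (SE 0.27, adjusted p = 0.011) when its 4 pseudogene copies were added to it.

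The ratio of Rpl3l to Rpl3 reads within a library needs no scaling between libraries. It was 6.02, 2.98, 5.37, 1.45, 5.89 and 6.10 in AngII and 2.17, 1.13, 1.46, 1.08, 0.247 and 0.221 in sham libraries. Library 4 was the only AngII library within the sham range. The mean log2 ratio was 2.05 ± 0.84 in AngII and -0.37 ± 1.38 in sham (SD, n = 6 each), a difference of 2.42 (2-sided exact permutation test, p = 0.0065, adjusted p = 0.039 over 6 paralog pairs). This test was added after the values of both genes were seen. With the copies of Rpl3 added the difference was 2.12 (exact permutation p = 0.0043), and without both sham 50 mg libraries it was 1.56 (exact permutation p = 0.029). These p-values were not adjusted over the 6 pairs.

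**Figure D3:**
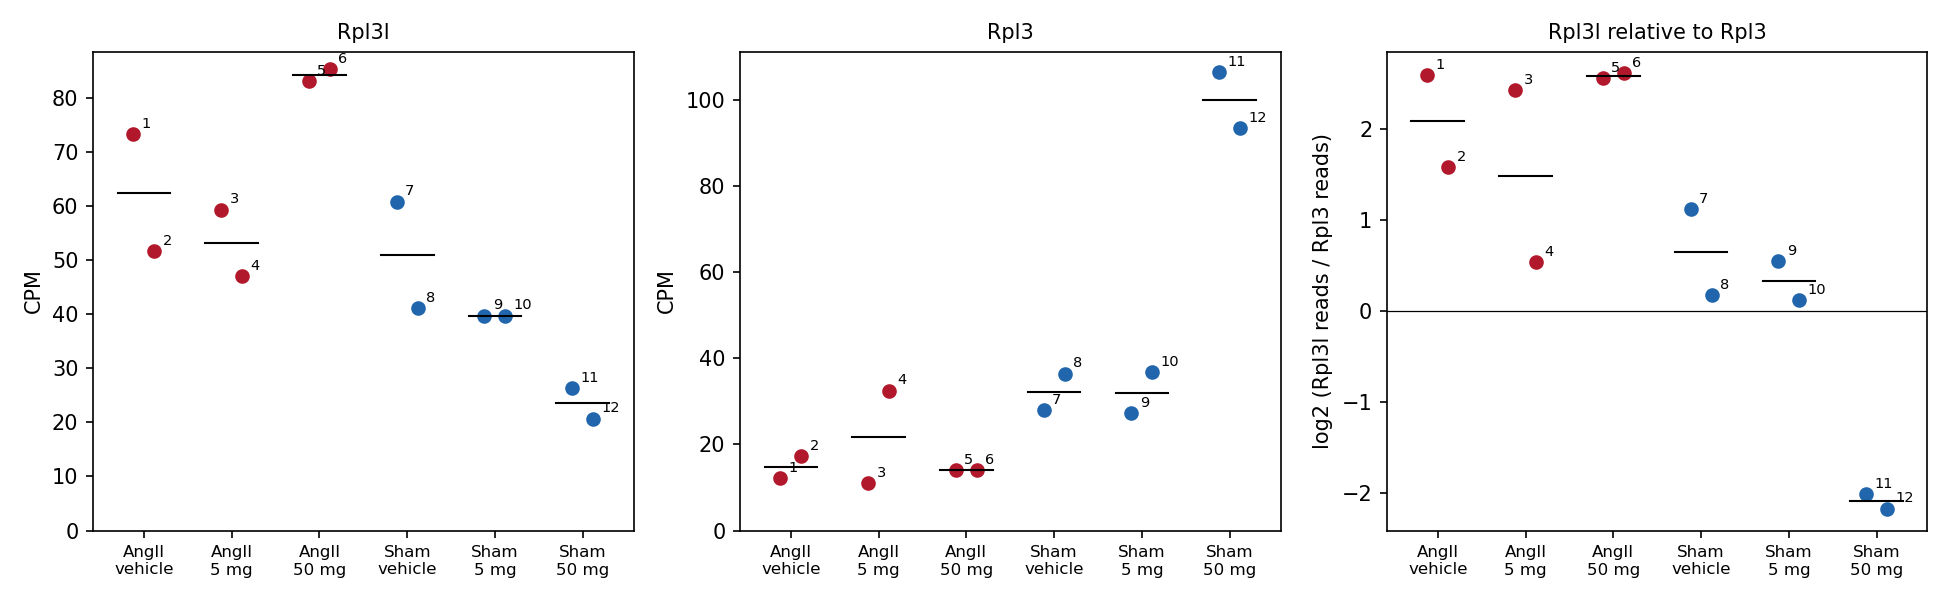
CPM of Rpl3l (left) and Rpl3 (middle) and the log2 ratio of their reads (right) in each library by group, with a line at the group mean. The ratio is between 0.53 and 2.61 in AngII libraries and between -2.18 and 1.12 in sham libraries, where libraries 11 and 12 are lowest.

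The ratios of the other 5 pairs differed by less. The log2 ratio of Rpl36al to Rpl36a was higher by 0.19 in AngII (exact permutation p = 0.045, adjusted p = 0.14). For Rpl7l1 to Rpl7 the difference was 0.14, for Rpl22l1 to Rpl22 0.11, for Rps27rt to Rps27 0.17 and for Rps27l to Rps27 -0.03, each with an adjusted exact permutation p from 0.29 to 0.82. Rpl22l1 fell by 0.63 and Rps27l by 0.54, and each kept its call in 1 of the 12 fits that left out a library. On log2(TPM + 1), Rps27l stood at 0.06.

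Reads of a ribosomal protein gene can land on its processed pseudogenes, and 69 of the 86 members had at least 1 such copy in the matrix. For 10 of them the share of reads on the gene, rather than on its copies, ranged by at least 25 percentage points between libraries, a limit set after the shares were seen. For Rpl34 it was 47.5, 92.2, 10.9, 90.4, 81.7 and 49.8% in AngII and 92.5, 92.0, 92.1, 83.7, 4.41 and 2.06% in sham libraries, with the reads of libraries 11 and 12 almost all on the copies. For Rpl3 it was 30.99 to 46.4% in libraries 1 to 10 but 93.4 and 94.1% in libraries 11 and 12. Values of these genes alone are uncertain.

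**Figure D4:**
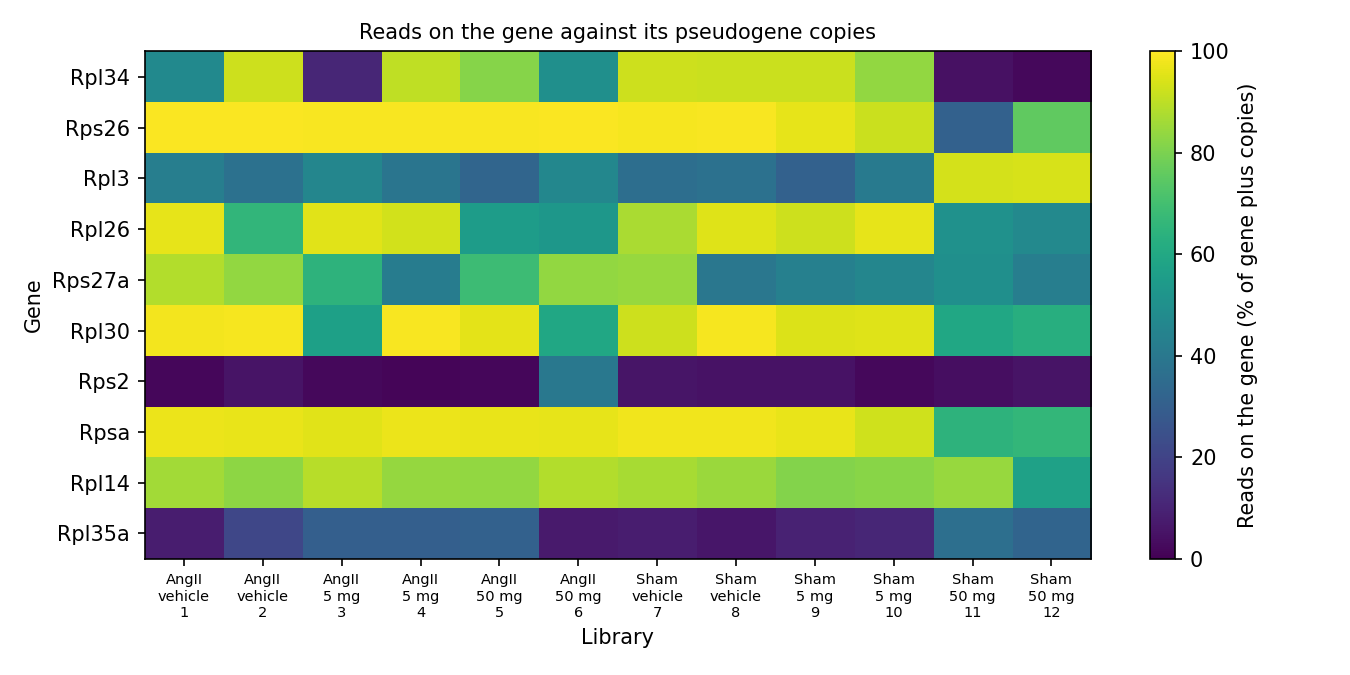
Reads on the gene as a percentage of reads on the gene and its pseudogene copies, for the 10 members whose share ranged by at least 25 percentage points over the 12 libraries. Libraries 11 and 12 differ from the rest in Rpl34 (4.41 and 2.06%), Rpl3 (93.4 and 94.1%), Rps26 and Rpsa.

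With copies added, Rpl34 had a log2 fold change of -0.97 (SE 0.19, edgeR adjusted p = 0.005) in place of 0.19 for the gene alone (adjusted p = 0.81). Rps26 had -0.94 (adjusted p = 0.006) in place of -0.58, and Rps2 had -0.82 (adjusted p = 0.039) in place of -0.77, both called only with copies. Rpl35a turned from 0.13 to -0.44 and Rpl29 from 0.22 to -0.80. Rpl21, which had 0.56 to 0.99 CPM in AngII, 0.76 to 1.28 CPM in sham libraries 7 to 10 and 17.1 and 16.6 CPM in libraries 11 and 12, fell by 1.90 alone and by 0.62 with its 25 copies. In all, 64 members fell with copies added, beside 54 for the genes alone, where 7.53% of all genes fell. The share of all genes that fell in the fit with copies is not given here.

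In single dose groups fewer members passed. In vehicle-treated hearts none of the 84 passed by edgeR, where 0.012% of all genes fell and 0.0478% rose. An unadjusted p under 0.05 was found for 50 of the 84, beside 2752 of all 16723 genes. The members' median was -0.72 and 81 of 84 were below 0. DESeq2 called 14, and the share of all genes it called is not given here. Rps13 (-1.28, SE 0.34), Rplp0 (-1.18), Rps15a (-1.05), Rps19 (-0.92) and Rpl14 (-1.07) had the smallest p, with adjusted p from 0.15 to 0.19. At 5 mg none passed (1 had an unadjusted p under 0.05, beside 2004 of all 16723 genes). There 0% of all genes were called in either direction, and the members' median was -0.32. Without library 4, 8 of 85 members fell in vehicle, where 0.379% of all genes fell. At 5 mg 14 of 85 fell, where 2.31% of all genes fell, and the median was -0.70. There the AngII arm is library 3 alone, which is assumed to vary like the other groups.

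At 50 mg, 5 members fell and 1 rose, where 1.38% of all genes fell and 4.04% rose, and the median was -0.86. Rpl21 (-4.82), Rpl3 (-2.83), Rps13 (-1.29), Rps14 (-1.25) and Rpl39 (-1.20) fell and Rpl3l (1.84) rose. With pseudogene copies added, Rpl21 stood at -0.98 (edgeR adjusted p = 0.047), well short of its value alone, and Rpl3 at -1.55 with an adjusted p of 0.071. The count of 6 ranged from 2 (without library 12) to 49 (without library 4), was 47 without library 3, and was 52 by DESeq2. Shares of all genes in these other fits are not given here.

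**Figure D5:**
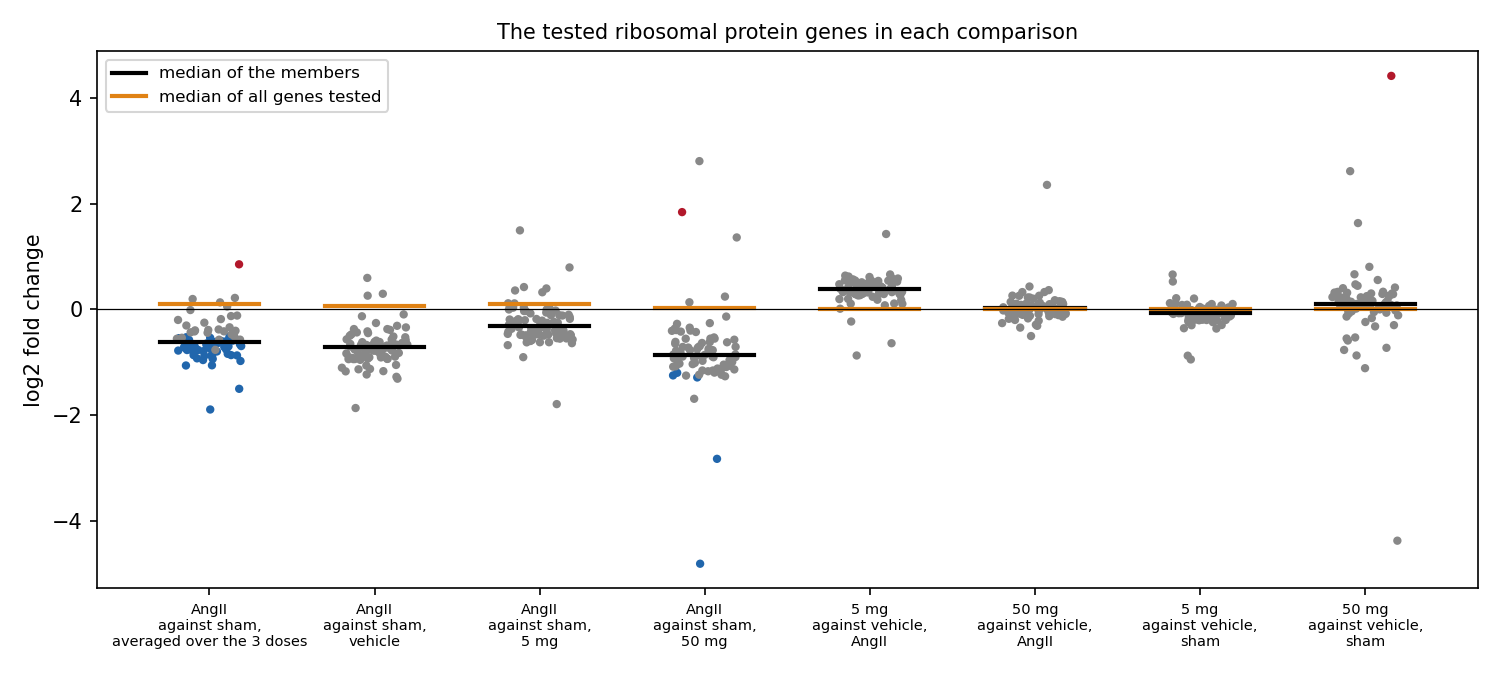
Log2 fold change of each tested member in 8 comparisons, with blue points that fell, red points that rose and grey points that did not pass. Black lines mark the members' median and orange lines the median of all genes, which lie apart in AngII against sham (-0.63 and 0.10 when averaged) and in 5 mg against vehicle in AngII (0.38 and 0.01).

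Few members passed in the comparisons of gastrodin with vehicle. In AngII hearts none passed at 5 mg, where 0.00598% of all genes rose. None passed at 50 mg, where 0.00598% rose and 0.00598% fell. At 5 mg 3 members had an unadjusted p under 0.05, beside 291 of all 16723 genes. At 50 mg it was 1 member, beside 315 of all genes. At 5 mg, 81 of 84 members were above 0 with a median of 0.38, and without library 4 it was 43 of 85 members with a median of 3e-04. Library 3 alone then stands for AngII 5 mg. A lower median was largely fixed in advance, since library 4 was set apart by these same genes. At 50 mg the median was 0.02. In sham hearts none passed at 5 mg (0 with an unadjusted p under 0.05, beside 689 of all 16723 genes). There 0.0179% of all genes fell, and the members' median was -0.07. At 50 mg in sham hearts Rpl21 alone rose (log2 4.42, 0.0837% of all genes rose and 0.0658% fell), and with its copies the value was 0.21 (edgeR adjusted p = 0.86). There 7 of 84 members had an unadjusted p under 0.05, a share near that of all genes (1542 of 16723). Rpl35a (2.62), Rpl34 (-4.38), Rpl3 (1.63) and Rpl3l (-1.12) came next but did not pass (edgeR adjusted p from 0.13 to 0.27). With copies added, Rpl35a stood at 0.32, Rpl34 at 0.38 and Rpl3 at 0.29, and Rpl3l has no copies.

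The interaction asks whether gastrodin acted differently in AngII and sham hearts. At 5 mg no member passed by edgeR, where 0.00598% of all genes rose. An unadjusted p under 0.05 was found for 0 members, beside 514 of all 16723 genes. Of the 84 members, 83 lay above 0 with a median of 0.45, beside 0.03 over all genes. Without library 4, 47 of 85 lay above 0 with a median of 0.06, beside -0.02 over all genes. At 50 mg Rpl21 was called lower (-4.40, SE 0.45, edgeR adjusted p = 0.0019, 0.0239% of all genes fell), and with copies added the value was -0.39 (adjusted p = 0.88).

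Per transcript length, the highest mean levels were those of Rps14 (296 ± 97.4 TPM), Rplp1 (293 ± 81.5 TPM), Rpl36 (234 ± 130 TPM) and Rps15 (201 ± 82.7 TPM; SD, n = 12). Neighbours in this order differed by less than their spread. The lowest were Rpl29 (0.917 ± 0.572 TPM), Rpl21 (1.64 ± 2.86 TPM), Rpl7l1 (2.79 ± 0.864 TPM), Rps19bp1 (3.96 ± 0.826 TPM) and Rps15a (6.28 ± 1.60 TPM). In counts Rps15a was not among the lowest, with a mean log2 CPM of 5.12 beside a members' median of 5.85. Its annotated exons cover 6270 bases and its principal transcript 640, and the part of length in its TPM was not tested. Rpl29 and Rpl21 are genes whose reads lie mostly on their copies, with at most 1.83 and 16.6% on the gene. Rpl3l had 62.4 ± 29.6 TPM in AngII and 21.4 ± 7.17 TPM in sham, and Rpl3 14.1 ± 3.32 and 33.0 ± 23.3 TPM (SD, n = 6).

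Of 20 other messages with a TOP start, 16 fell and none rose in AngII against sham averaged over the doses, where 7.53% of all genes fell and 13.4% rose, with a median of -0.72 beside 0.10 over all genes. Those that fell included Eef1a1 (-1.12), a translation elongation factor, and Eef1b2 (-0.97), a subunit of its exchange factor. Hnrnpa1 (-1.01), an RNA-binding splicing factor, Pabpc1 (-0.90), the poly(A)-binding protein, and Eif3e (-0.82), a subunit of initiation factor 3, fell too. Of 44 ribosome biogenesis genes 5 fell and 1 rose (median -0.22), so that the share that fell was near the 7.53% of all genes and the share that rose below the 13.4%. Fbl (-0.86), the rRNA methyltransferase, Ncl (-0.77), nucleolin, Imp4 (-0.77), Nhp2 (-0.63) and Nop10 (-0.64) fell, and Las1l (0.69) rose. None of 9 snoRNA host RNAs passed by edgeR, with 0 at an unadjusted p under 0.05, beside 6137 of all 16723 genes.

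Of 15 genes of RNA polymerase I, the enzyme that transcribes ribosomal RNA, and its factors, Taf1c (1.08), Polr1b (1.09) and Polr1a (0.89) rose and Polr1d (-0.69) fell, with shares near those of all genes (13.4% rose and 7.53% fell). Of 22 regulators, 5 rose and 2 fell, where 13.4% of all genes rose and 7.53% fell. Their median was -0.04, with 10 above 0 and 12 below 0. Mtor (1.05), Tsc1 (1.00), Tsc2 (1.30), the S6 kinase gene Rps6kb2 (1.29) and Larp1 (0.88) rose, and Eif4e (-1.26), the cap-binding protein, and its binding protein gene Eif4ebp1 (-0.83) fell. On log2(TPM + 1), 3 of the genes in these lists were called in place of 33, and with the share of remaining counts as a covariate 1 was. The share of all genes called in those fits is not given here, so the drop cannot be called particular to these lists.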

How the data were processed

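Heart RNA of 12 mouse libraries in 6 groups was prepared with TruSeq kits and sequenced as paired ends, per the labels' protocols. HISAT2 2.2.1, StringTie 2.1.3 and GRCm38.p6 are named in the submitters' processing notes; for the counting program, annotation release and strand setting the sources used here give nothing. Raw, unnormalised counts per gene were deposited as 1 matrix, and TPM per gene were deposited for each library. No columns of other samples were present. Members, copies and positions came from GENCODE M21 annotation on GRCm38. A pseudogene counted as a copy by its name or by at least 50% shared 31-base words.

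Counts were fitted in R 4.3.3 with edgeR 4.0.16 (filterByExpr, TMM, 1 mean per group over 12 libraries, 6 residual degrees of freedom, quasi-likelihood F-test, Benjamini-Hochberg over 16723 genes). TPM were tested with limma 3.58.1 at pseudocounts of 1 and 0.1. Alternatives included DESeq2 1.42.0 and limma-voom, other filters and scalings, GC and length trends, copies summed, a covariate and left-out libraries. The fit was tested on simulated data. Members and gene lists were chosen with earlier results of these data known. Genes were named by rule: the smallest p per comparison, members nearest 0, extremes of TPM, fixed stalk and paralog genes, and the smallest p per list; not every gene the rule takes is printed, values of some members are not reported here, and the genes without overlap and those singled out for copies were chosen after their values were seen.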

Additional observations from a re-analysis of the deposited data

Results flagged for a closer look

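In 28 of 160 groups of 6 libraries (80 members in each arm, log2 CPM), the highest or lowest library stood apart from the nearest other by more of the group's whole range than Dixon's 95% critical value. Chance gives this in about 1 in 20 groups, and members of a library are not independent of each other. Library 4 was the highest of the AngII arm for Rpl13a (0.65), Rpl17 (0.6999), Rpl18 (0.633), Rpl23 (0.683), Rpl32 (0.639), Rpl39 (0.66), Rpl6 (0.642), Rpl8 (0.691), Rps12 (0.679), Rps15a (0.683), Rps16 (0.661), Rps23 (0.666), Rps25 (0.702), Rps27 (0.627), Rps27l (0.643) and Rps28 (0.691), as the share of the range. Library 11 was the highest of the sham arm for Rpl23a (0.677), Rpl37 (0.675), Rpl37a (0.768), Rpl38 (0.646), Rpl7a (0.724), Rplp1 (0.657), Rps21 (0.646) and Rps28 (0.796). Library 7 was the lowest of the sham arm for Rpl12 (0.712). Library 9 was the lowest of the sham arm for Rpl29 (0.637). Library 10 was the lowest of the sham arm for Rps10 (0.724). Library 11 was the lowest of the sham arm for Rps26 (0.802). 

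The effect of 50 mg gastrodin on Rpl21 differed between AngII and sham hearts by -4.40 on the log2 scale (edgeR interaction, adjusted p = 0.0019). Reads on the gene were 0.833 to 1.42% of those on the gene and its copies in libraries 1 to 10 and 16.4 and 16.6% in libraries 11 and 12. With copies added, the difference was -0.39.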

How the results depend on the processing

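Reads on mitochondrial genes leave 4.49 to 15.2 M counts per library for all other genes, and 2 libraries per group limit the precision. In AngII against sham averaged over the 3 doses the members' median stayed below 0 in every fit run, between -0.81 and -0.05. The cause of the changes below was not tested. The counts called below stand without the share of all genes called in the same fit. No paired analysis was possible because the groups share no library number. The medians of the members and the ratio of Rpl3l to Rpl3 were put through alternatives chosen after seeing the data. The difference in log2 ratio ranged from 2.06 to 2.73 when single libraries were left out. All its alternatives kept an unadjusted exact permutation p under 0.05 (at most 0.029). Unlike the main p, these were not adjusted over the 6 paralog pairs, so they do not show that the adjusted result holds.

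With limma-trend on log2(TPM + 1), the count called was 2 in the averaged comparison, 1 in AngII against sham, 50 mg, 2 in 50 mg against vehicle, sham, 0 in interaction at 50 mg and 3 among tied genes. With limma-trend on log2(TPM + 1), the median changed sign to 0.40 for AngII against sham, 5 mg and 0.002342 for interaction at 50 mg. With limma-trend on log2(TPM + 1), the sign turned for Rpl11 (0.21), Rpl17 (0.0633), Rpl26 (0.20), Rpl36 (0.49), Rpl36al (0.18), Rpl7l1 (0.0179), Rps10 (0.14), Rps15 (0.40), Rps19bp1 (0.17), Rps27 (0.0928), Rps27a (0.64), Rps27l (0.0613), Rps27rt (0.25) and Rpsa (0.41). With limma-trend on log2(TPM + 0.1), the count called was 3 in the averaged comparison, 2 in AngII against sham, 50 mg, 2 in 50 mg against vehicle, sham, 0 in interaction at 50 mg and 10 among tied genes. With limma-trend on log2(TPM + 0.1), the median changed sign to 0.41 for AngII against sham, 5 mg and 0.00188 for interaction at 50 mg. With limma-trend on log2(TPM + 0.1), the sign turned for Rpl11 (0.21), Rpl17 (0.0644), Rpl26 (0.20), Rpl36 (0.49), Rpl36al (0.19), Rpl7l1 (0.034), Rps10 (0.14), Rps15 (0.40), Rps19bp1 (0.20), Rps27 (0.0933), Rps27a (0.67), Rps27l (0.0629), Rps27rt (0.26) and Rpsa (0.41). With the share of other genes as a covariate, the count called was 4 in the averaged comparison, 2 in AngII against sham, vehicle, 3 in 50 mg against vehicle, sham, 2 in interaction at 50 mg and 1 among tied genes. With the share of other genes as a covariate, the median changed sign to 0.0804 for interaction at 50 mg. With the share of other genes as a covariate, the sign turned for Rpl29 (-0.0016) and Rpl38 (-0.22). With the length trend removed, the count called was 32 in the averaged comparison. With the length trend removed, the sign turned for Rpl36 (0.33), Rps15 (0.17), Rps27a (0.21) and Rps27rt (0.0772). By the DESeq2 Wald test, the count called was 14 in AngII against sham, vehicle, 52 in AngII against sham, 50 mg, 6 in 50 mg against vehicle, sham and 2 in interaction at 50 mg. With no filter, the count called was 8 in AngII against sham, vehicle, 2 in AngII against sham, 5 mg, 25 in AngII against sham, 50 mg, 1 in 5 mg against vehicle, AngII, 1 in 50 mg against vehicle, AngII, 4 in 50 mg against vehicle, sham and 4 in interaction at 50 mg. With no filter, the sign turned for Rps27a (0.0122). Without libraries 4 and 12, the count called was 5 in AngII against sham, vehicle, 10 in AngII against sham, 5 mg, 11 in AngII against sham, 50 mg, 2 in 50 mg against vehicle, sham and 11 relative to the members' sum. Without libraries 4 and 12, the median changed sign to -3.637e-05 for 5 mg against vehicle, AngII. Without libraries 4 and 12, the sign turned for Rpl34 (-1.003). By limma-voom, the count called was 14 in AngII against sham, 50 mg. By limma-voom, the sign turned for Rpl34 (-0.19), Rpl35a (-0.0463) and Rps27a (0.079). With at least 1 CPM in 6 libraries, the count called was 13 in AngII against sham, 50 mg, 0 in 50 mg against vehicle, sham and 0 in interaction at 50 mg. With at least 1 CPM in 6 libraries, the median changed sign to -0.001428 for 50 mg against vehicle, AngII. With only the compared groups, the count called was 20 in AngII against sham, 50 mg and 4 in 50 mg against vehicle, sham. With the GC trend removed, the median changed sign to -1.027e-05 for 50 mg against vehicle, AngII. With the GC trend removed, the sign turned for Rpl29 (-0.20), Rpl38 (-0.34) and Rps27a (0.22). With pseudogene copies summed, the count called was 0 in 50 mg against vehicle, sham and 0 in interaction at 50 mg. With pseudogene copies summed, the sign turned for Rpl29 (-0.80), Rpl34 (-0.97) and Rpl35a (-0.44). Over the 12 fits that left out a library, counts ran from 16 to 66 in the averaged comparison, 0 to 8 in AngII against sham, vehicle, 0 to 14 in AngII against sham, 5 mg, 2 to 49 in AngII against sham, 50 mg, 1 to 4 in 50 mg against vehicle, sham, 1 to 2 in interaction at 50 mg, 3 to 19 relative to the members' sum and 14 to 46 among tied genes. Medians ran from -0.70 to 0.008354 for AngII against sham, 5 mg, -0.11 to 0.17 for 50 mg against vehicle, AngII and -0.20 to 0.08248 for interaction at 50 mg, and log2 fold changes that turned sign in at least 1 of these fits were those of Rpl29 (-0.0533 to 0.97), Rpl34 (-0.81 to 0.52), Rpl35a (-0.27 to 0.36), Rpl38 (-0.10 to 0.19) and Rps27a (-0.22 to 0.37).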
